A study of Mus musculus with 7 samples.

Results

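The study asked how aging changes regulatory T cells (Tregs), and splenic CD4+CD25+ cells of 3 aged and 4 young mice were sequenced for it. The groups described here are the aged libraries, from wild-type (WT) mice of 18 months, and the young libraries, which the labels give as WT mice of 8 weeks, while the study's methods state a slightly older age for its young animals. All mice were male C57BL/6 by the study's methods, no treatment is given for either group, and the cells were enriched from the spleen with magnetic beads, so that the isolate is a cell fraction rather than a pure population. The genes described are 9 of cytotoxic granules and cytotoxic T effectors, namely Gzma, Gzmb, Gzmk, Gzmm, Prf1, Srgn, Nkg7, Ctsw and Ccl5, chosen by symbol. All 9 were found among the 25469 genes with a symbol in the deposited table (47729 genes in the count files), and all 9 passed the filter on low counts that left 13904 genes to test.

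Cytotoxic lymphocytes kill by emptying granules onto a target cell. Perforin, the product of Prf1, opens the target membrane, and granzymes, a family of serine proteases, enter and cleave proteins that lead to cell death. Srgn encodes serglycin, the proteoglycan on which granzymes are stored, and Ctsw and Nkg7 encode a cathepsin and a membrane protein of cytotoxic lymphocytes. Ccl5 encodes a chemokine that such cells secrete. Some Tregs also use granzyme B and perforin to suppress other cells, and both proteins were among those the study stained by flow cytometry.

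Gzmk and Gzma lie 70.6 kb apart on the minus strand of chromosome 13 and had log2 fold changes of opposite sign, so the bases before their RefSeq start sites are shown with those of Gzmb, the gene that stood out in a single library. Each line holds the 250 bases before the start on GRCm38.p6, 5′ to 3′ on the minus strand, on which all 3 genes lie, as in RefSeq. The RefSeq start of Gzmk lies inside the longer GENCODE gene given below. Capitals mark matches on either strand to motif letters, which were AGGTGT for the core of a T-box site, TGTGGT for a Runx site, TGANTCA for an AP-1 site, GGAAAA for an NFAT site and TATAAA for a TATA box.
Gzmk, chr13:113180966-113181215: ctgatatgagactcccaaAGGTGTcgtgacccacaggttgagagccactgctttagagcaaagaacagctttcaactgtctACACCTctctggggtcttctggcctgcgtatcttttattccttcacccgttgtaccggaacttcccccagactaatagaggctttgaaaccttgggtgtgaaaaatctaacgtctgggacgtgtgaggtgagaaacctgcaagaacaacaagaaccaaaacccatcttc
Gzma, chr13:113100982-113101231: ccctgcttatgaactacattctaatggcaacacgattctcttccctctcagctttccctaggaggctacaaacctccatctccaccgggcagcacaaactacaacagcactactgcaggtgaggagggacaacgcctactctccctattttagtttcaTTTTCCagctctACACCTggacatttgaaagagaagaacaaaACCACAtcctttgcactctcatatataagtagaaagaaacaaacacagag
Gzmb, chr14:56262335-56262584: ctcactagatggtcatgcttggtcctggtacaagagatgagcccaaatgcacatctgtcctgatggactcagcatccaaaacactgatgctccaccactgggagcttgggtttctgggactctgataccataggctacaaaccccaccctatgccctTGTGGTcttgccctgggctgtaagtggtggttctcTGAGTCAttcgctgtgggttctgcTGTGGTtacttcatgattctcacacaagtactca

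The Gzmk window holds 2 matches to the T-box letters, 232 and 169 bases before the start, and none to the other motifs. The Gzma window holds 1 match each to the T-box, Runx and NFAT letters, at 80, 50 and 92 bases. The Gzmb window holds 2 matches to the Runx letters, at 93 and 34 bases, and 1 to the AP-1 letters, at 58 bases. Among all 32851 RefSeq windows of this length, the T-box letters occur in 11.8%, the Runx letters in 14%, the AP-1 letters in 6.75%, the NFAT letters in 20.4% and the TATA letters in 12.4%. A match is only a match of letters. Windows were found for 7 of the 9 genes, and none for Ccl5 and Ctsw.

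The libraries held 10734234 to 13649310 reads on genes, with every young library deeper than every aged one, and the floor of 3 counts used here equalled 0.21 to 0.302 CPM, that is, counts scaled to a common total with TMM factors. Nothing in the labels beyond the words biological replicate says how the samples of an age were kept apart, so p-values measure the spread between these samples. Cd4 and Il2ra encode CD4 and CD25, by which the labels name the cells, while Foxp3 is a Treg marker that the labels do not name. Cd4, Il2ra and Foxp3 had 4311 to 9034, 3309 to 9762 and 4747 to 7397 counts, and none of them was called different between the ages. Cd4 was nevertheless lower in every aged library, at 434 to 446 CPM against 493 to 633 CPM (log2 fold change -0.30, adjusted p = 0.117 from edgeR). The aged mean of Il2ra was 380.3 ± 87.0 CPM (SD, n = 3), below the young one of 579 ± 94.3 CPM (SD, n = 4; -0.61, adjusted p = 0.0588), and that of Foxp3 was 516 ± 93.3 CPM, with 446 ± 61.8 CPM in young libraries (0.21, adjusted p = 0.409). Of the exon bases of Foxp3, 31.5% are shared with Ppp1r3f, Gm36995, Flicr and Ccdc22, and reads on more than 1 gene stayed out. Transcripts of other cells were present in every library. The libraries of an age also differed in these, since haemoglobin genes took 1.24% to 13.1% of the counts, and aged replicate 1 stood apart with a summed level of 8 neutrophil markers of 5288 CPM, against 306 to 1893 CPM in the other libraries. Mitochondrial genes moved with age, at 10.7%, 5.08% and 5.53% of the counts in aged replicates 1 to 3 and 2.63% to 3.23% in the young libraries, without overlap. In bulk samples, fewer cells of a type and less RNA per cell cannot be told apart.

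Across the granule genes, Gzmk, Ccl5 and Srgn rose in the aged libraries, and none of the 9 was called lower as fitted. By the quasi-likelihood test of edgeR, with p-values adjusted over all genes (Benjamini-Hochberg, called below 0.05), 3 of 9 were called, all higher, against 16.7% of all genes tested (9.8% higher and 6.94% lower). Of the 9 log2 fold changes, 7 were above 0 and 2 below, with a median of 0.72, beside a median of 0.02 over all genes tested. The split of calls over all genes depended on the processing, with 1362 higher and 965 lower as fitted. It was 1203 higher and 1483 lower once the GC content and length trends of each library were removed. With scaling by library size only, it was 960 higher and 875 lower. In 3 of the 9 genes all aged libraries lay above all young ones, which held for 15.5% of the genes tested. An exact permutation test (two-sided) over 3 and 4 libraries cannot give a p below 0.0571, which Gzmk, Ccl5 and Srgn each reached. For these genes that restates the lack of overlap and is no further test. Over all 13904 genes tested, the groups lay apart in 2156 higher and 2000 lower. The higher mitochondrial share of the aged libraries moved with these calls, and its part in them was not tested. With mitochondrial, immunoglobulin and haemoglobin genes left out of the counts, 3 of 9 were called, against 17.5%. DESeq2 gave an adjusted p for 8 of the genes and called 5 higher and 1 (Gzma) lower, against 27.4% of the genes with an adjusted p. Without a filter on low counts it called 3 of 8 higher and 1 (Gzma) lower, against 17.6%. With edgeR and no filter 4 of 9 were called, against 8.72%. With the GC content and length trends removed, Gzmk and Ccl5 were called higher, Gzma was called lower and Srgn was not called, against 19.3% of genes. Scaling by library size only left Gzmk and Ccl5, 2 of 9, against 13.2%. Gzmk had passed the filter through its aged libraries, and with at least 10 counts required in every library Gzmk and Gzmm dropped out, which left 2 of 7 called (Ccl5 and Srgn), against 16.1%. A replicate block, although the replicate numbers were not found to pair the samples, left 1 of 9 (Ccl5), against 2.1%, and 1 against 2.04% with those trends removed as well. An adjusted p under 0.01 left 2, against 5.33%. The count was 4 without aged replicate 1, aged replicate 2 or young replicate 2, against 21.5%, 12.2% and 14.5% of genes. It was 2 without aged replicate 3, young replicate 1, young replicate 3 or young replicate 4, against 8.9%, 9.58%, 9.28% and 9.03%.

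**Figure D1:**
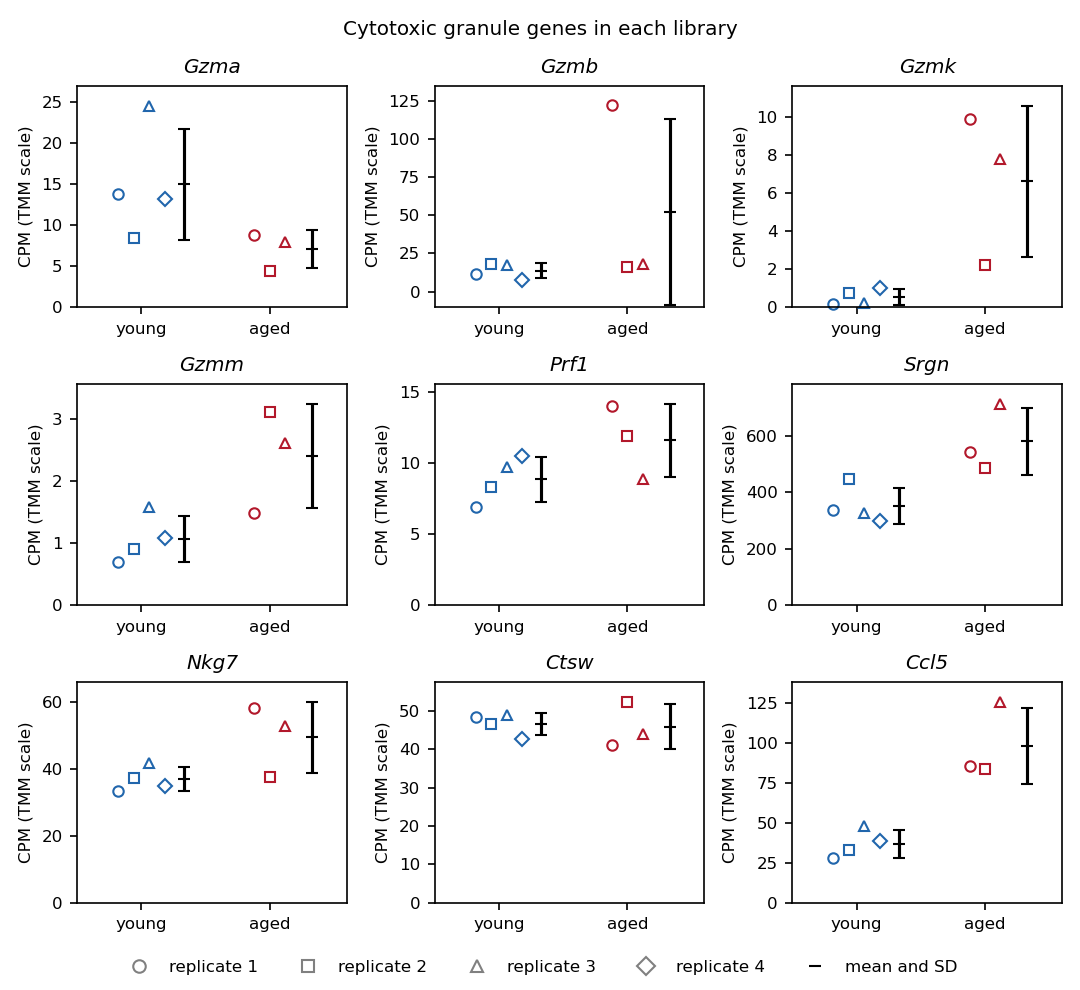
Level of each of the 9 genes in each library, in CPM on the TMM scale (vertical axis, linear), for 4 young libraries (blue) and 3 aged libraries (red), with symbols for the replicate number and bars for the mean and SD. Gzmk, Srgn and Ccl5 are higher in every aged library than in every young one, and Gzmb is at 122.7 CPM in aged replicate 1 alone.

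Gzmk encodes granzyme K, a trypsin-like granzyme. It lies at 113171608 to 113225908 on chromosome 13 of GRCm38 (ENSMUSG00000042385). It was measured at 9.87, 2.22 and 7.77 CPM in the aged libraries (here and below in replicate order), and at 0.175, 0.771, 0.237 and 1.00 CPM in the young ones. The groups did not overlap, although aged replicate 2 was well below the other aged libraries. In reads, these levels were 113, 22 and 83 counts against 2, 11, 3 and 14, so that young replicates 1 and 3 were at or under the floor. The aged libraries averaged 6.62 ± 3.96 CPM (SD, n = 3), 12.1 times the young mean of 0.546 ± 0.405 CPM (SD, n = 4). edgeR gave a log2 ratio (log2 fold change, aged over young) of 3.54 with an SE of 0.63 (adjusted p = 0.00838). The call held in each of the 7 fits that left out a library, with log2 ratios of 3.13 to 3.99 and adjusted p-values of 0.00471 to 0.0321. Gzmk had, however, passed the filter on low counts through its aged libraries. The call was lost when edgeR was fitted with a replicate block (3.81, adjusted p = 0.0917).

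Gzma encodes granzyme A, also a trypsin-like granzyme, and had the opposite sign. It lies at 113093825 to 113100981 on chromosome 13 (ENSMUSG00000023132), with 70.6 kb and 3 annotated genes between it and Gzmk. It was at 8.82, 4.43 and 7.95 CPM in the aged and at 13.8, 8.41, 24.5 and 13.2 CPM in the young libraries. Young replicate 2 lay inside the aged range, and young replicate 3 was the highest of all. edgeR gave a log2 ratio of -1.08 with an SE of 0.377 (adjusted p = 0.0864), which did not pass the threshold, and was -1.27 (adjusted p = 0.0403) without young replicate 2. Gzma was also called lower with the GC content and length trends removed (-1.33, adjusted p = 0.0479) and by DESeq2 (adjusted p = 0.00761, and 0.0155 without a filter). Over the alternatives the adjusted p was 0.00761 to 0.205.

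Gzmb encodes granzyme B, which cleaves after aspartate and activates caspases. It lies at 56258838 to 56262260 on chromosome 14 (ENSMUSG00000015437). It was at 122.7 CPM (1404 counts) in aged replicate 1, at 15.9 and 17.9 CPM in aged replicates 2 and 3, and at 11.5, 17.9, 17.4 and 7.67 CPM in the young libraries. The other aged libraries lay inside or at the edge of the young range, and aged replicate 1 was 6.86 times the highest of the other 6 libraries. Its log2 ratio of 1.94 (SE 0.692, edgeR adjusted p = 0.0909) therefore rested on 1 library, and it was 0.31 (adjusted p = 0.535) without aged replicate 1. It passed the threshold in 1 alternative, with no filter on low counts (adjusted p = 0.0463), in a range up to 0.567, and DESeq2 gave no adjusted p.

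By the ratio of aged replicate 1 to the highest other library, Gzmb was number 4 of the 13904 genes tested, and 5 genes had a ratio over 5. The others were Ifit3b and Slfn4, which are interferon-induced, Ighv1-47, an immunoglobulin segment, and Olfm4, a neutrophil granule gene, all named after their values were seen. In the same library the 8 NK cell markers summed to 35.6 CPM, against 29.7 and 34.0 CPM in the other aged libraries and 44.3 to 62.5 CPM in the young ones. The 2 CD8 T cell markers summed to 82.0 CPM there, above the 45.4 and 54.6 CPM of the other aged libraries and within the young range of 48.8 to 92.7 CPM, and the 6 mast cell and basophil markers to 5.42 CPM, below the young range of 5.81 to 32.1 CPM. The part of the neutrophil and CD8 T cell transcripts of this library in the Gzmb level was not tested.

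Gzmm encodes granzyme M and lies at 79689020 to 79695261 on chromosome 10 (ENSMUSG00000054206). It averaged less than Gzma and Gzmb at both ages, at 1.49, 3.12 and 2.62 CPM in the aged and 0.699, 0.911, 1.58 and 1.08 CPM in the young libraries. Aged replicate 1 lay within the young range and the other aged libraries above it. edgeR gave a log2 ratio of 1.16 with an SE of 0.37 (adjusted p = 0.0647), and 1.41 (adjusted p = 0.03) without aged replicate 1. DESeq2 called Gzmm higher (adjusted p = 0.0243), but not without a filter (adjusted p = 0.0789).

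The make-up of the granzyme transcripts was compared next. Per kb of exon, so that genes can be compared, the summed level of the 4 granzymes was 19.2 to 102.3 CPM per kb in aged and 19.9 to 37.7 CPM per kb in young libraries, which overlapped (exact permutation test, two-sided, p = 0.514). Gzma made up 38.0% to 65.9% of that sum in the young and 8.57% to 28.5% in the aged libraries. The lowest aged share was that of aged replicate 1, without which the aged libraries held 22.9% and 28.5%, and a sum of 19.2 and 27.7 CPM per kb. Gzmb made up 83.5%, 57.7% and 44.9% in the aged and 26.8% to 56.6% in the young libraries, which overlapped. Gzmk made up 0.453% to 3.63% in the young and 6.95% to 20.2% in the aged libraries. The ratio of Gzmk to Gzma per kb was 0.362 to 0.810 in aged and 0.007 to 0.0664 in young libraries. The Gzmk count was at or under 3 in young replicates 1 and 3. The ratio of Gzmb to Gzma per kb was 9.74, 2.52 and 1.57 in aged and 0.407 to 1.49 in young libraries. Both ratios were chosen after their genes were seen to have opposite signs, so they are a description only. The exact permutation test (two-sided) gave p = 0.0571 for each, but that choice of genes makes the test void and nothing is drawn from it.

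**Figure D2:**
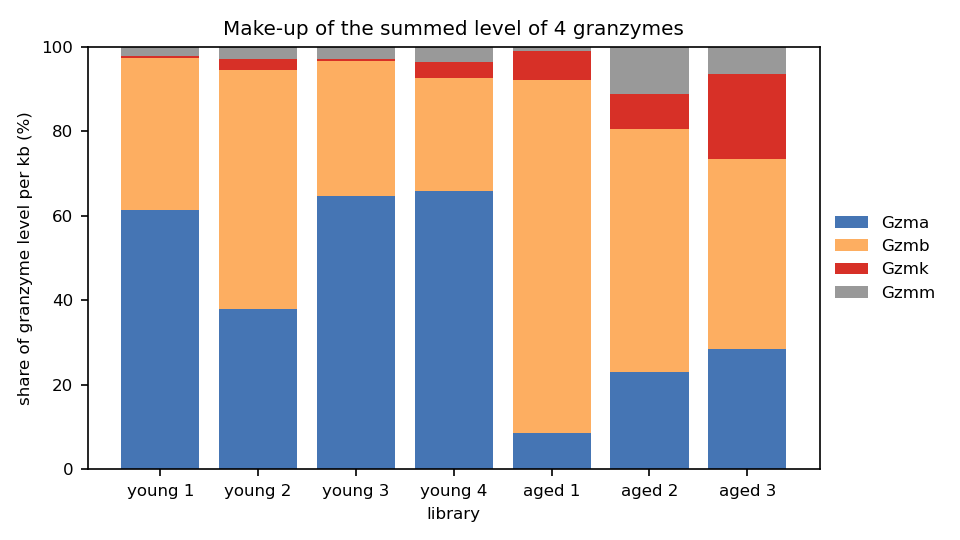
Share of each of Gzma, Gzmb, Gzmk and Gzmm in their summed level (percent, vertical axis), from CPM per kb of exon, in each library. Gzma takes 38.0% to 65.9% in the young and 8.57% to 28.5% in the aged libraries, with the lowest in aged replicate 1, where Gzmb takes 83.5%, and Gzmk takes 6.95% to 20.2% in the aged libraries.

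Prf1, the pore-forming gene, lies at 61297833 to 61304680 on chromosome 10 (ENSMUSG00000037202). It was at 14.0, 11.9 and 8.89 CPM in the aged and at 6.90, 8.27, 9.71 and 10.5 CPM in the young libraries. The groups overlapped, with aged replicate 3 inside the young range. The log2 fold change of 0.39 (SE 0.209, 95% interval -0.09 to 0.87, edgeR adjusted p = 0.236) was not called, nor was it in any of the alternatives, where adjusted p-values were 0.145 to 0.517.

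Srgn was the most abundant of the genes per length, and its serglycin core protein is also made by neutrophils, macrophages, mast cells and platelets. It lies at 62493833 to 62527451 on chromosome 10 (ENSMUSG00000020077). It was at 543, 487 and 714 CPM in the aged and at 337, 446, 325 and 299 CPM in the young libraries. No aged library reached down to the young range, of which young replicate 2 was the top. The aged libraries averaged 581 ± 118 CPM (SD, n = 3), 1.65 times the young mean of 352 ± 64.6 CPM (SD, n = 4). edgeR gave a log2 ratio of 0.72 with an SE of 0.181 (adjusted p = 0.0293). The call was lost without aged replicate 3 (0.55, adjusted p = 0.098), without young replicate 1 (0.71, adjusted p = 0.0739), young replicate 3 (0.69, adjusted p = 0.0829) or young replicate 4 (0.65, adjusted p = 0.0834). It was also lost with library size only (adjusted p = 0.0685) and with the GC content and length trends removed (0.54, adjusted p = 0.0536).

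Markers of other cells that make serglycin were partly called as well. Of 8 neutrophil markers 3 were called higher in aged libraries, against 9.8% of all genes tested. The 8 summed to 669 to 5288 CPM in aged and 306 to 986 CPM in young libraries, with an overlap, and none was at 0 in a library. Of 5 platelet markers tested, of 6 listed, 1 was called higher, also against 9.8% of all genes. The 6 summed to 22.5 to 44.1 CPM against 11.8 to 19.4 CPM. Of 8 monocyte or macrophage markers 3 were called lower, against 6.94% of all genes, with sums of 190.2 to 288 CPM against 315 to 378 CPM. Of 3 mast cell and basophil markers tested, of 6 listed, 1 (Cpa3) was called lower, also against 6.94% of all genes. The 6 summed to 2.25 to 6.75 CPM against 5.81 to 32.1 CPM, which overlapped. The log2 ratio of Srgn was 0.77 (edgeR adjusted p = 0.0358) without aged replicate 1. In neutrophil markers aged replicate 2, at 1893 CPM, also exceeded every young library, and aged replicate 3, at 669 CPM, lay inside the young range. Aged replicate 3 had the highest Srgn, the highest platelet sum and the lowest neutrophil sum of the aged libraries. The part of neutrophil, platelet, macrophage and mast cell transcripts in the Srgn difference was not tested.

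Nkg7 lies at 43437073 to 43438249 on chromosome 7 (ENSMUSG00000004612) and was at 58.0, 37.6 and 52.7 CPM in the aged and at 33.5 to 41.7 CPM in the young ones. Aged replicate 2 lay inside the young range. edgeR gave a log2 ratio of 0.43 with an SE of 0.155 (adjusted p = 0.0955), and 0.59 (adjusted p = 0.0206) without aged replicate 2. With the GC content and length trends removed it gave 0.23 (adjusted p = 0.408). DESeq2 called Nkg7 higher (adjusted p = 0.0279), but not without a filter (adjusted p = 0.107). Ctsw, which encodes cathepsin W, lies at 5465043 to 5468507 on chromosome 19 (ENSMUSG00000024910) and shares 9 bases of exon with Fibp. It was at 41.1, 52.4 and 44.0 CPM in the aged and at 48.5, 46.5, 48.9 and 42.6 CPM in the young libraries. The groups overlapped, and the log2 fold change was -0.03 (SE 0.109, 95% interval -0.27 to 0.22, edgeR adjusted p = 0.897).

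Ccl5 lies at 83525778 to 83530518 on chromosome 11 (ENSMUSG00000035042). It was at 85.4, 83.7 and 125.6 CPM in the aged and at 28.0, 32.9, 48.1 and 38.3 CPM in the young libraries. Every aged library was above every young one, with the lowest aged level well clear of the highest young level. Their mean of 98.2 ± 23.7 CPM (SD, n = 3) was 2.67 times the young mean of 36.8 ± 8.62 CPM (SD, n = 4). edgeR gave a log2 ratio of 1.41 with an SE of 0.207 (adjusted p = 0.00384). Omitting single libraries gave log2 ratios of 1.20 to 1.57, and the call held in all 19 alternatives in which it was fitted, with adjusted p-values up to 0.0299. Platelets also carry Ccl5 transcripts, and the platelet markers summed to 22.5, 32.5 and 44.1 CPM in the aged and 11.8 to 19.4 CPM in the young libraries, without overlap and with aged replicate 3 the highest in both. The part of platelet transcripts in the Ccl5 difference was not tested.

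**Figure D3:**
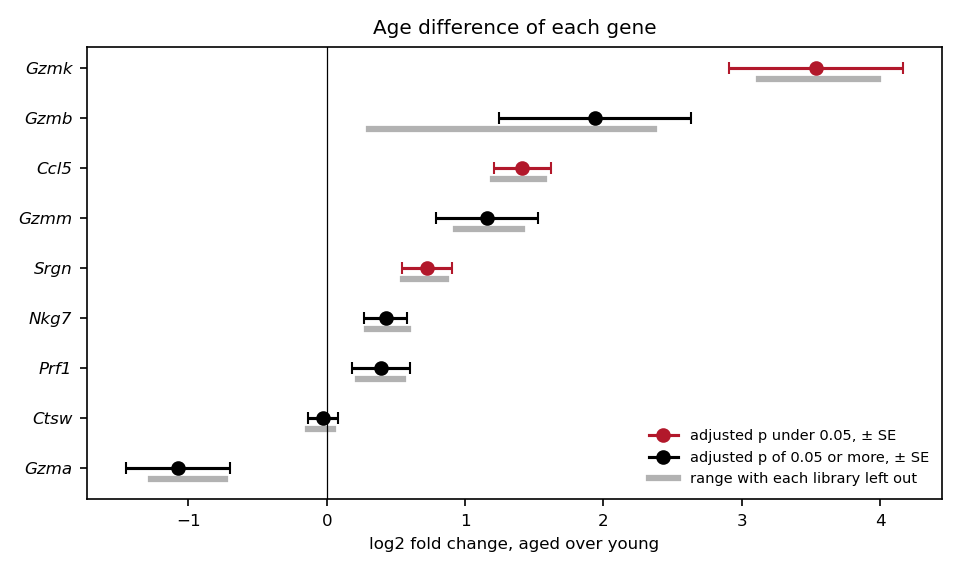
Log2 fold change of each gene, aged over young (horizontal axis), with its standard error from edgeR, and in gray the range when each of the 7 libraries was left out in turn. Gzmk, Ccl5 and Srgn, in red, have an adjusted p under 0.05, and the gray range of Gzmb runs from 0.31 to 2.37.

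The genes also differed widely in level. Per kb of exon and over all 7 libraries, Srgn was at 205 CPM per kb, which was number 189 of the 13862 tested genes with a known length. Ccl5 followed at 65.8, Nkg7 at 46.2 and Ctsw at 24.5 CPM per kb. Among the killing proteins themselves Gzmb was at 21.0, Gzma at 11.5, Prf1 at 3.88, Gzmk at 2.27 and Gzmm at 1.12 CPM per kb. This order mixes the ages and rests partly on aged replicate 1, without which Gzmb was at 10.2, Gzma at 11.97 and Gzmk at 1.46 CPM per kb. In the aged libraries Gzmk (4.76 ± 2.85 CPM per kb, SD, n = 3) and Prf1 (4.48 ± 0.99 CPM per kb, SD, n = 3) did not differ beyond their spread. In the young libraries, Gzma (14.9 ± 6.74 CPM per kb, SD, n = 4) was above Gzmb (9.48 ± 3.41 CPM per kb, SD, n = 4) on average, but the spreads of these neighbours in the order overlapped. No exon base of the granzymes, Prf1, Srgn, Nkg7 or Ccl5 is shared with another gene in GENCODE M21.

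NK cells, CD8 T cells and gamma delta T cells also express granzymes. Of 8 NK cell markers 2 (Klrb1c and Klrd1) were called lower in aged libraries and none higher, against 6.94% and 9.8% of all genes. The 8 summed to 29.7 to 35.6 CPM in aged and 44.3 to 62.5 CPM in young libraries. Both CD8 T cell markers were present in every library without a call, at sums of 45.4 to 82.0 CPM and 48.8 to 92.7 CPM. Of 4 markers of gamma delta and innate-like T cells, 1 (Tcrg-C1) was called lower, also against 6.94% of all genes. Their sums were 16.7 to 20.3 CPM against 30.5 to 42.7 CPM. None of these markers was at 0 in a library. The part of NK cell, CD8 T cell and gamma delta T cell transcripts in the values of Gzma, Gzmk, Ccl5 and Srgn was not tested. Of 6 markers of effector Tregs, 3 (Itgae, Icos and Areg) were called higher and none lower, against 9.8% and 6.94% of all genes, with sums of 436 to 591 CPM in aged and 163 to 321 CPM in young libraries.

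**Figure D4:**
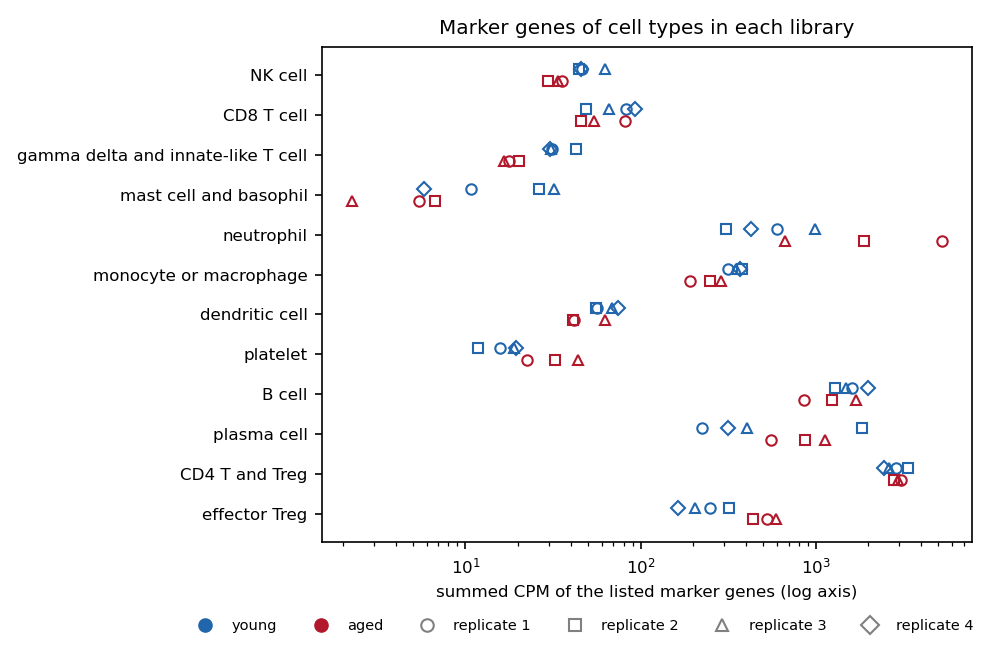
Summed CPM of the marker genes of 12 cell types or states (horizontal log axis) in each library, young in blue and aged in red, with symbols for the replicate number. NK cell sums are 29.7 to 35.6 CPM in aged and 44.3 to 62.5 CPM in young libraries, and the neutrophil sum of aged replicate 1 reaches 5288 CPM.

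Of the 44 genes listed for the wider cytotoxic programme, 40 were found and 38 tested, and 14 were called, 11 higher and 3 lower in aged libraries, against 9.8% and 6.94% of all genes. The split depended on the processing. With the GC content and length trends removed, 8 were called higher and 6 lower, when 19.3% of all genes were called (1203 higher and 1483 lower). DESeq2 called 15 higher and 7 lower, when 27.4% of all genes were called (1982 higher and 1822 lower). The median log2 fold change was 0.19. Leaving out a library changed the count to between 7 and 13, when 8.9% to 21.5% of all genes were called (16.7% as fitted). In all of those fits 7 of the 14 were called, namely Cst7, Serpinb9, Serpina3g, Stx11, Igf2r, Tbx21 and Ccr1. With a replicate block only Cst7, Stx11 and Ccr1 of these were called, against 2.1% of all genes.

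Of 4 inhibitors of granzymes and cathepsins tested, 2 rose (Serpinb9 and Serpina3g), as did Cst7, 1 of the 2 genes listed for granzyme activation, against 9.8% of all genes called higher. Cst7, which encodes cystatin F, an inhibitor of the cathepsins that activate granzymes, was at 73.3, 91.3 and 98.7 CPM in the aged and between 27.1 and 43.3 CPM in the young libraries (log2 fold change 1.36, SE 0.169, edgeR adjusted p = 0.00193). Ctsc, which encodes cathepsin C, the enzyme that activates granzymes, was at 78.7 to 89.0 CPM against 92.0 to 100.2 CPM and was not called (-0.21, adjusted p = 0.13). Serpinb9, the mouse inhibitor of granzyme B, was at 32.0 to 46.2 CPM in aged and 18.8 to 20.8 CPM in young libraries (0.93, SE 0.143, edgeR adjusted p = 0.00466). Serpina3g, an inhibitor of cathepsins, was at 296 to 361 CPM against 84.3 to 148 CPM (1.55, SE 0.184, edgeR adjusted p = 0.00162). Serpinb6a, which shares 29.3% of its exon bases with 3 other genes (1110046J04Rik, Nqo2 and Ripk1), and Serpinb6b were not called, and 4 of the 6 other granzymes listed were not found by symbol, while Gzmc was at 1.01 to 1.66 CPM against 1.43 to 2.94 CPM.

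Of 13 genes of granule sorting and release, 3 were called higher and 2 lower, against 9.8% and 6.94% of all genes, and of these Stx11 and Igf2r were called in all 7 fits that left out a library. Stx11, a syntaxin needed for granule fusion, was at 38.6 to 52.3 CPM in aged and 19.9 to 23.0 CPM in young libraries (1.09, SE 0.126, edgeR adjusted p = 0.00149). Vamp8 (0.46, adjusted p = 0.0333) and Sytl3 (0.75, adjusted p = 0.0408) were called higher, but only in 2 and in none of the 7 fits that left out a library. Igf2r, a mannose 6-phosphate receptor that carries granzymes to the granule, was at 109.3 to 160.4 CPM against 204 to 261 CPM (-0.84, SE 0.15, edgeR adjusted p = 0.00853). Sytl2 was called lower (-0.69, adjusted p = 0.0305), in 1 of those 7 fits. Rab27a, Unc13d, Stxbp2, Lyst, Lamp1, M6pr, Vamp7 and Sytl1 were not called.

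Of 8 transcription factors, 2 were called higher and 1 lower, against 9.8% and 6.94% of all genes. Tbx21, which encodes T-bet, was at 14.4 to 18.3 CPM in aged and 6.03 to 9.96 CPM in young libraries (1.04, SE 0.196, edgeR adjusted p = 0.0105). The call of Tbx21 was lost when edgeR was fitted with a replicate block (1.17, adjusted p = 0.0512). Prdm1, which encodes Blimp-1, was called higher (1.20, adjusted p = 0.0326) and Zeb2 lower (-0.74, adjusted p = 0.0433), in 2 and 1 of the 7 fits that left out a library. Eomes, the T-box factor related to T-bet, was at 5.14 to 11.8 CPM against 8.91 to 13.8 CPM and was not called (-0.37, adjusted p = 0.427). Runx3, Id2, Irf4 and Klf13 were not called either.

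Of 5 death ligands and effector cytokines 1 was called higher, and of 5 chemokines and Ccl5 receptors 2, against 9.8% of all genes. Among these Ccr1, a receptor of Ccl5, was called higher. It was at 10.4 to 18.8 CPM against 2.01 to 3.06 CPM (2.39, adjusted p = 0.00159 from edgeR). Ccr1 is also a neutrophil and monocyte receptor, and the part of the neutrophil transcripts in its difference was not tested. Ccl4 (1.58, adjusted p = 0.0152) and Tnf (0.81, adjusted p = 0.0395) were called higher, in 6 and 1 of the 7 fits that left out a library, whereas Fasl, Ifng, Tnfsf10, Lta, Ccl3, Xcl1 and Ccr3 were not called. Fasl, the ligand of the other main killing pathway of lymphocytes, was at 3.84 to 7.96 CPM against 2.18 to 4.69 CPM (0.86, adjusted p = 0.122).

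**Figure D5:**
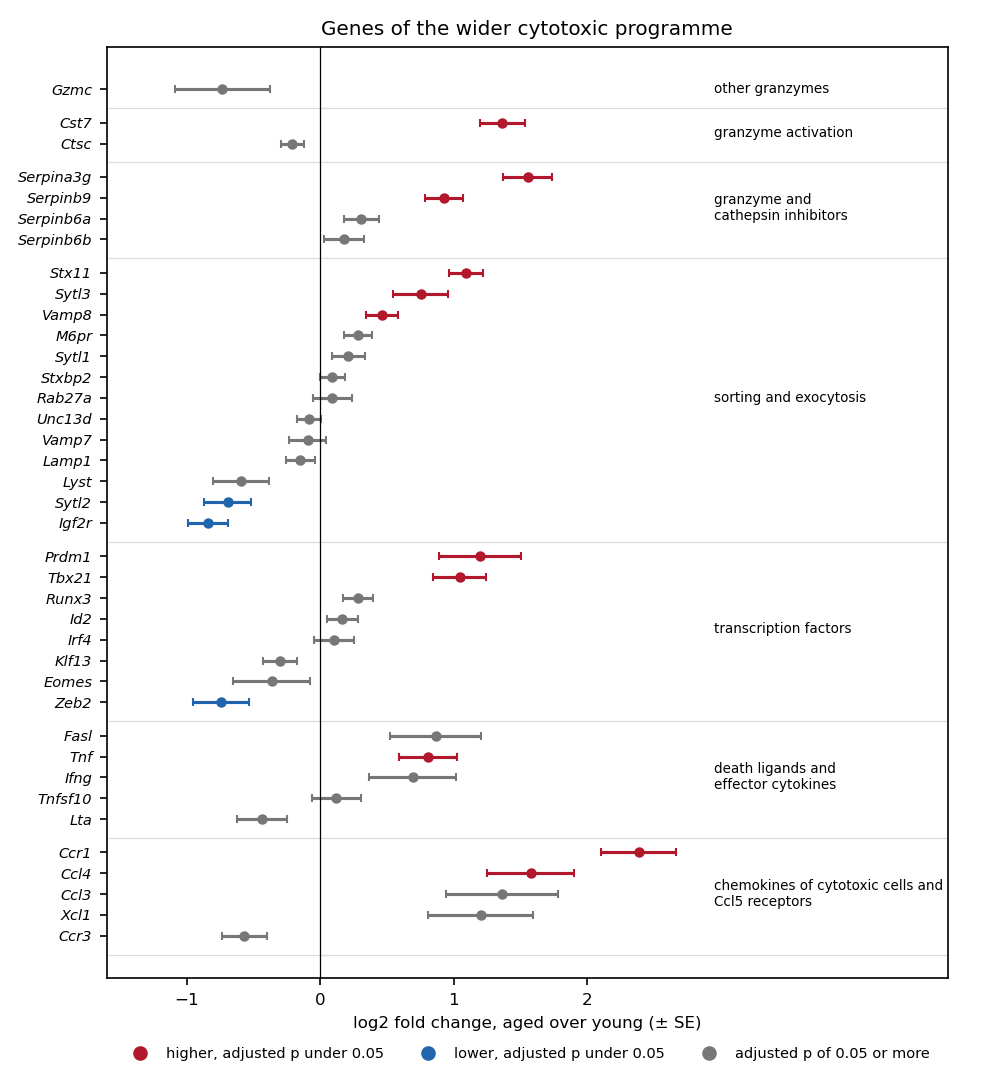
Log2 fold change, aged over young, with its standard error from edgeR, of the 38 tested genes of the wider cytotoxic programme, grouped by role. Red and blue mark the 11 genes called higher and the 3 called lower, with Ccr1 farthest to the right at 2.39.

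The genes whose pattern over the 7 libraries was most like that of a called gene were found by the root mean square distance of centred log2 CPM. For Gzmk they were Gm4951 (0.575), Il21 (0.647) and Gm4841 (0.693), among 11956 genes. For Ccl5 they were BC064078 (0.196), Gm12655 (0.21) and Zbtb42 (0.216), and for Srgn they were Gm8430 (0.0622), Zcchc18 (0.0652) and Tnfrsf1b (0.0887), among 11955 genes each.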

How the data were processed

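Each library comes from splenic CD4+CD25+ cells and was made with a SMART-Seq v4 kit, without molecular identifiers, so the floor of 3 counts covers counting error only. The authors deposited raw read counts per Ensembl gene, in a layout that is that of HTSeq-count in union mode without strand, on mm10 per the labels. The aligner and its version are not given in the sources used here. The authors also deposited signal values, the counts divided by 1 size factor per library, which were checked against the counts. That table also holds the authors' fold changes and p-values, which were not used. Reads that fell on no gene or on more than 1 (13.1% to 20.9%) stayed out.

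The comparison of the ages used the quasi-likelihood test of edgeR 4.0.16 (R 4.3.3), with TMM factors, filterByExpr by group, no covariate and Benjamini-Hochberg adjustment. The study names limma, which was run as an alternative (voom, and limma-trend with prior count 2, limma 3.58.1). Other alternatives were DESeq2 1.42.0, other normalizations, filters and thresholds, the replicate block and each library left out. DESeq2 without a filter was added after the data were seen. SE is the log2 ratio divided by the square root of the F statistic. Tests were checked on simulated counts. Exon lengths and coordinates are from GENCODE M21 (GRCm38), in which 47224 of 47729 genes were matched.

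Named were the 9 genes, the listed programme genes (the called ones first), the check genes, marker genes beside a result, and the 3 genes closest in pattern to each called gene with a mean log2 CPM of at least 1. The genes and lists were chosen with earlier results of these data known. A listed programme gene is not reported here, and it is left out of the programme's counts and median.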

Additional observations from a re-analysis of the deposited data

Results flagged for a closer look

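In the 4 young libraries, the gap test (Dixon, 95%) set 3 values of 51 genes checked apart, all in young replicate 2, and chance alone sets about 1 in 20 groups apart. M6pr was at 250 CPM there, against 209 to 210.2 CPM in the other young libraries. Lamp1 was at 263 CPM, against 217 to 221 CPM. Rab27a was at 119 CPM, against 82.6 to 87.1 CPM. None of the 9 granule genes was set apart in a young library, and the 3 aged libraries are too few for this test, so that Gzmb in aged replicate 1 was not tested by it.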

How the results depend on the processing

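As fitted, 2327 genes, 3 of the 9 granule genes and 14 programme genes were called. DESeq2 called 3804, 6 and 22, and DESeq2 without a filter 2910, 4 and 18. An adjusted p under 0.01 left 741, 2 and 6. Leaving out each library gave 1237 to 3058 genes, 2 to 4 granule genes and 7 to 13 programme genes. The replicate numbers were not found to pair the samples, since same-numbered libraries had correlations of deviations of -0.091, -0.292 and -0.138. Other pairs of an aged and a young library had -0.241 to 0.227. So few values cannot exclude that libraries of a number share a batch. With the replicate block 292, 1 and 3 were called, and 284, 1 and 2 with the GC content and length trends also removed, and with the block Ccl5 was called (adjusted p = 0.0262), whereas Gzmk (3.81 against 3.54 as fitted, adjusted p = 0.0917) and Srgn (0.65 against 0.72, adjusted p = 0.177) were not. In 9 cases the log2 fold change of a gene that was not called turned. Leaving out 1 library gave Ctsw -0.134 to 0.0431 (above 0 without aged replicate 1, and at 0.00397 without aged replicate 3), Serpinb6b -0.0138 to 0.2997, Rab27a -0.000522 to 0.224 and Tnfsf10 -0.0813 to 0.281, each of the last 3 below 0 without aged replicate 1. With the GC content and length trends removed Rab27a turned to -0.0105, and with the block as well Rab27a to -0.0568, Id2 to -0.00343 and Tnfsf10 to -0.0546. The causes were not tested. Of the 9 genes, Gzmk in young libraries (2 to 14 counts) and Gzmm (8 to 31 counts) had the fewest counts, and Gzmb had the largest SE (0.692).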
